A study of Mus musculus with 6 samples.

Results

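The transcripts described here are those of 10 ligands of the tumour necrosis factor (TNF) superfamily, chosen by name: Tnf, Lta, Ltb, Fasl, Cd40lg, Tnfsf8, Tnfsf9, Tnfsf10, Tnfsf11 and Tnfsf14. All 10 were listed in each of the 6 libraries, among 26771 genes listed in any library. The libraries hold messenger RNA of γδT17 cells, a γδ T cell subset that produces interleukin-17, from spleens of C57BL/6 mice of the genotype TCRβ-/-, which lack the β chain of the αβ T cell receptor. The Initial group consists of uncultured cells sorted out of splenocytes, and the sources used here do not give the gate. The Induced group was cultured with a protocol built on the cytokines IL-1β and IL-23, collected at day 8 and then purified with a magnetic Pan T cell kit. Each group held 3 libraries, from mice labelled A, B and C, so the genotype was shared by both groups while culture, time and purification differed together. The sources used here give neither age nor sex of the mice.

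TNF superfamily ligands are made mostly as membrane proteins that assemble as trimers and bind receptors on neighbouring cells. Some, such as TNF, are released by proteases, and lymphotoxin α (Lta) is secreted directly or held at the membrane by lymphotoxin β (Ltb). Some of their receptors carry a death domain, which can start apoptosis. Many, including some with a death domain, recruit TRAF adaptors, which activate NF-κB and promote survival and costimulation. In activated T cells many of these ligands are induced through the T cell receptor, and the messenger RNA of TNF is held short-lived by proteins that bind AU-rich elements.

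The genes of Ltb, Tnf and Lta lie next to each other on chromosome 17, and their promoters are shown because Lta and Tnf had the largest rises among the ligands and Ltb the highest level. Each window runs from 250 bases before to 50 bases after the start of the gene, 5′ to 3′ on the coding strand, as given by RefSeq for GRCm38.p6. The Ltb window is on the plus strand at chr17:35194257-35194556, the Tnf window on the minus strand at chr17:35201958-35202257 and the Lta window on the minus strand at chr17:35205302-35205601. Capitals mark matches to a TATA box (TATAAA, coding strand), to the NFAT-type core GGAAA (either strand) and to the NF-kappaB consensus (either strand).
Ltb promoter: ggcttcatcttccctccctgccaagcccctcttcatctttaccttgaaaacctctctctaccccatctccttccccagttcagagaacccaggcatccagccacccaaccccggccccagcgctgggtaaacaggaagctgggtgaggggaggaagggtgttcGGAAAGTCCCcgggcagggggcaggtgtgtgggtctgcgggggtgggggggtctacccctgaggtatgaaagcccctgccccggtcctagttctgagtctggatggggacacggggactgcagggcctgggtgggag
Tnf promoter: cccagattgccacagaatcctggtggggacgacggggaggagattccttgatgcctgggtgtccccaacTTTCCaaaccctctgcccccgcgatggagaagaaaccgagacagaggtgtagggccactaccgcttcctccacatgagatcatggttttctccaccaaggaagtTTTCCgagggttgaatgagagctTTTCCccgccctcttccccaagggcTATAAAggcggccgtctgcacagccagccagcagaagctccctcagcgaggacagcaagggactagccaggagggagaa
Lta promoter: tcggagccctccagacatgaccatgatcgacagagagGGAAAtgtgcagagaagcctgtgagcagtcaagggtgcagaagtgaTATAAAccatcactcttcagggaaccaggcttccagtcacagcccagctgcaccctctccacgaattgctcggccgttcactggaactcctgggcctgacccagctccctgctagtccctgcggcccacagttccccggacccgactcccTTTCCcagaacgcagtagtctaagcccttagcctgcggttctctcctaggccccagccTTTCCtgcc
The TATA match of Tnf began at -29 from the start and that of Lta at -167, and 8.88% of 27025 promoters of the same length held one. The NF-kappaB match of Ltb began at -87 and overlapped its GGAAA match, and 4.35% of promoters held such a match. Of the ligands, 8 had a promoter in the RefSeq table, all with a GGAAA match, which 61.3% of promoters held. An AP-1 match (TGANTCA, either strand) was found in Tnfsf14 alone among these 8, against 7.93% of promoters. Matches in such windows are a description of the letters and not evidence of binding.

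The 3′ untranslated regions of Tnf and Lta are shown because they alone among the 10 ligands held the nonamer TTATTTATT of AU-rich elements. Each site is 30 bases of the GRCm38 transcript from GENCODE M21, with the nonamers in capitals.
Tnf site: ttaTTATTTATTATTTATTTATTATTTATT
Lta site: tttatggagagaaaagttaagTTATTTATT
Tnf held 5 nonamers in a region of 764 bases, overlaps counted, of which the site shows 4, and Lta held 1 in 572 bases. None was found in the other 8 ligands, whose regions ran from 174 bases (Ltb) to 3998 bases (Tnfsf10). Over all 21020 genes with an annotated 3′ untranslated region, 7.66% held the nonamer.

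The deposited values were FPKM, fragments scaled to transcript length and library size, so that levels can be compared between genes. From the smallest steps between low values the depth was roughly 19100000 to 23200000 fragments per library. At that depth counting alone gives a 2 kb transcript at an FPKM of 1 a coefficient of variation of roughly 14.7 to 16.2%. T cell markers were present in all libraries, but their level was not constant. The 9 T cell markers summed to 2918 to 3172 FPKM in Initial and 2183 to 2251 FPKM in Induced libraries. In the test described below 3 of them fell (Cd3d, Cd3e and Lck), 1 rose (Thy1) and 5 did not pass. Lck went from 920 ± 45.9 to 289 ± 109 FPKM. The δ chain gene Trdc, among those that did not pass, had 327 ± 7.24 FPKM before and 335 ± 31.7 FPKM after culture. The Initial libraries also held markers of other cells. The summed FPKM of 10 B cell markers ran from 3136 to 3667 in Initial and from 158 to 273 in Induced libraries. Of the 10, 9 were lower in every Induced library and none was at 0 there. The exception, Blk, rose from 21.3 ± 0.485 to 98.6 ± 22.3 FPKM and was a large part of the Induced sums. The 10 macrophage markers summed to 470 to 829 and to 1.71 to 4.35 FPKM. All 10 were lower in every Induced library, and Mertk was at 0 in each. The 6 red cell markers summed to 1217 to 1742 and to 1.17 to 1.63 FPKM, with Alas2 at 0 in every Induced library. The 10 monocyte, neutrophil and dendritic cell markers summed to 133 to 304 in Initial and 224 to 249 in Induced libraries, with 5 of the 10 lower in every Induced library and none at 0 in all of them, and Ccr2 made up most of the Induced sums. The 6 natural killer cell markers summed to 108 to 122 FPKM in Initial libraries and to 30.7, 19.97 and 79.3 FPKM in Induced A, B and C, with 5 of the 6 lower in every Induced library and Klra4 and Klra8 at 0 there. Trac, Cd4, Cd8a and Cd8b1, known as genes of αβ T cells, summed to 177 to 223 and to 76.4, 60.6 and 132 FPKM. Of these 4, 2 were lower in every Induced library and none was at 0. Mice of this genotype lack conventional αβ T cells, and which cells held these transcripts was not tested. Induced C stood apart from Induced A and B in the natural killer and αβ T cell lists and in several ligands below.

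Culture was accompanied by a shift of the ligand transcripts towards the lymphotoxin and TNF genes. Of the 10 ligands, 5 rose (Lta, Tnf, Tnfsf9, Tnfsf14 and Ltb), 3 fell (Fasl, Cd40lg and Tnfsf11) and 2 did not pass the test (Tnfsf8 and Tnfsf10). The test was limma on log2(FPKM + 1) over 11265 genes, called at a Benjamini-Hochberg adjusted p under 0.05. In that comparison 70.4% of all genes tested were called, 37.3% rising and 33.1% falling, so the number of ligands called was close to the background. The groups did not overlap for 8 of the 10 ligands, against 75.4% of genes tested. The median log2 fold change was 0.58 over the ligands and 0.03 over all genes tested. All fold changes below are on the log2(FPKM + 1) scale, Induced over Initial, with their standard error (SE), and understate the change of low genes. Means carry the SD over 3 libraries. In bulk libraries such as these, fewer cells of a type and less RNA per cell cannot be told apart.

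**Figure D1:**
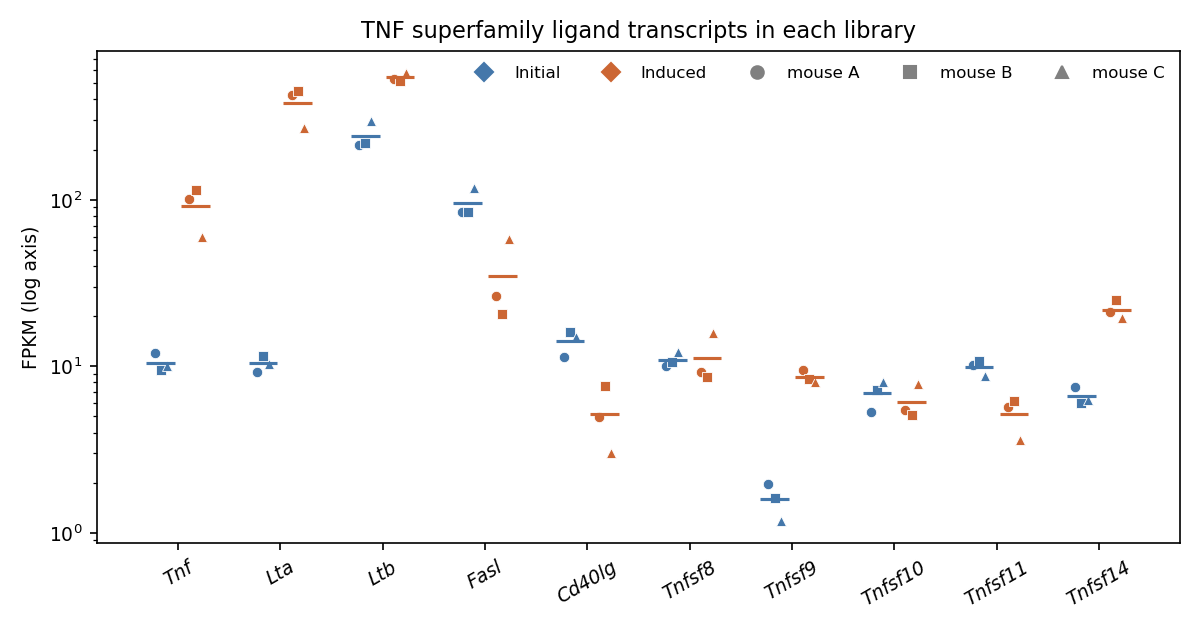
FPKM of each ligand in each library on a log axis, with Initial libraries in blue, Induced libraries in orange, a marker shape for each mouse and a line at the mean of each group. The Induced libraries lie above all Initial libraries for Lta, Tnf, Ltb, Tnfsf9 and Tnfsf14 and below them for Fasl, Cd40lg and Tnfsf11.

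**Figure D2:**
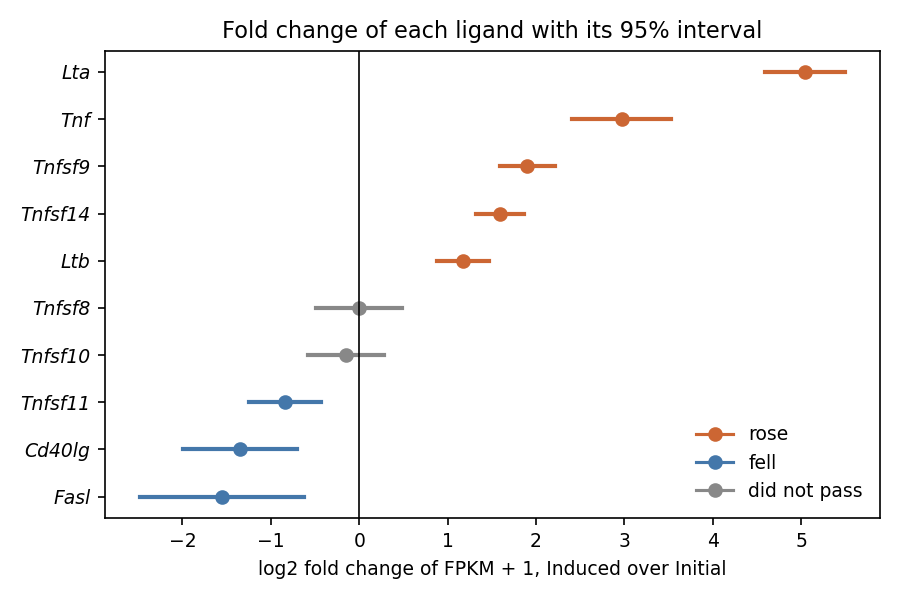
Log2 fold change of FPKM + 1 (Induced over Initial) for each ligand, with the 95% interval from limma as a bar. Lta stands at 5.04 and Fasl at -1.55, and the intervals of Tnfsf8 and Tnfsf10 include 0.

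Lta (ENSMUSG00000024402, chromosome 17, 35203165 to 35205351, minus strand, GRCm38), which encodes lymphotoxin α, had 9.26, 11.6 and 10.4 FPKM in Initial A, B and C and 424, 450 and 271 FPKM in Induced A, B and C. All Induced libraries lay far above all Initial libraries, and Induced C was the lowest of them. The log2 fold change was 5.04 (SE 0.19, adjusted p = 7.1e-07), the fourth largest of the genes tested, and the ratio of the group means was 36.7. By its mean level Lta ranked 6067 of the genes tested before culture and 150 after it. The microRNA gene Mir6974 lies inside Lta, and Mir6973a inside Ltb, on the same strand, so reads from these stretches cannot be assigned to one gene.

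Tnf (ENSMUSG00000024401, chromosome 17, 35199381 to 35202007, minus strand), the gene of TNF itself, had 12.0, 9.48 and 10.05 FPKM in Initial A, B and C and 101, 115 and 60.1 FPKM in the Induced libraries. It rose in every mouse, with a log2 fold change of 2.97 with an SE of 0.24 (adjusted p = 3.3e-05), an 8.76-fold ratio of means. Its level again was lowest in Induced C. Before culture Tnf and Lta stood at the same level, with a ratio of Lta to Tnf of 0.770, 1.22 and 1.03 in mice A, B and C. After culture the ratio was 4.19, 3.92 and 4.51, higher in all 3 mice and without overlap. The difference was 2.08 on the log2 scale (exact permutation test, two-sided, p = 0.1, the smallest p that 3 against 3 allows). This ratio within a library does not depend on how libraries are scaled.

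Ltb (ENSMUSG00000024399, chromosome 17, 35194439 to 35196320, plus strand), whose product anchors lymphotoxin α at the membrane, was the most abundant ligand in every library. It had 214, 218 and 295 FPKM in Initial A, B and C and 531, 520 and 576 FPKM in the Induced libraries. The log2 fold change was 1.17 (SE 0.13, adjusted p = 8.2e-05). B cells and natural killer cells, whose summed markers were lower after culture, also make Ltb, and their part in the Initial level was not tested. The ratio of Lta to Ltb went from 0.0433, 0.0531 and 0.0352 in Initial A, B and C to 0.798, 0.867 and 0.470 in the Induced libraries. Its difference was 3.99 on the log2 scale (exact permutation test, two-sided, p = 0.1, again the smallest possible), so the transcripts of both chains were nearer to equal levels after culture, with Ltb above Lta in all 6 libraries.

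These 3 genes together made up 63.7 to 65.1% of the summed FPKM of the 10 ligands before culture and 88.7 to 93.0% after it. The sum itself was 366, 376 and 485 FPKM in Initial A, B and C and 1139, 1167 and 1022 FPKM in Induced A, B and C. It was higher in all Induced libraries by 1.45 on the log2 scale (exact permutation test, two-sided, p = 0.1, the smallest possible). Lta alone went from 2.58 ± 0.474% to 34.1 ± 6.64% of the sum, while the share of Fasl went from 23.3 ± 0.95% to 3.25 ± 2.12%. The share of Ltb was 59.1 ± 1.53% and 49.2 ± 6.27%, although its level rose.

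**Figure D3:**
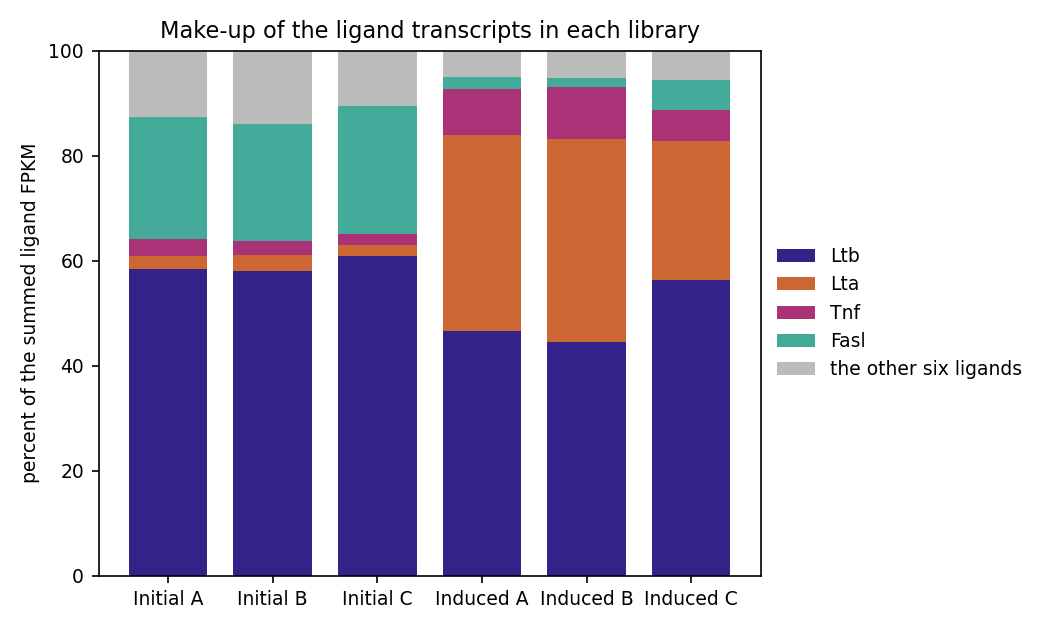
Stacked shares of Ltb, Lta, Tnf, Fasl and, pooled in grey, the remaining ligands in the summed FPKM of the 10 ligands, in percent, for each library. Lta takes 2.14 to 3.08% in the Initial and 26.5 to 38.6% in the Induced libraries, and Fasl 22.4 to 24.3% and 1.76 to 5.68%.

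Within the locus, Tnf lies 3060 bases from Ltb and 1157 bases from Lta. The coding genes on either side did not all move alike. Nfkbil1, next to Lta at a distance of 14823 bases, went from 5.69 ± 0.986 to 14.1 ± 2.02 FPKM (log2 fold change 1.18, SE 0.14, adjusted p = 0.00014). Lst1, next to Ltb at a distance of 5999 bases and known as a gene of myeloid cells, went from 5.31 ± 0.755 to 1.502 ± 0.705 FPKM (log2 fold change -1.36, SE 0.20, adjusted p = 0.00048). The macrophage markers fell with Lst1, and their part in its fall was not tested.

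The other ligands of chromosome 17, Tnfsf9 and Tnfsf14, lie 81734 bases apart and also rose. Tnfsf9 (ENSMUSG00000035678, 57105325 to 57107757, plus strand), the costimulatory ligand of 4-1BB, had 1.97, 1.62 and 1.18 FPKM in Initial A, B and C and 9.47, 8.33 and 8.06 FPKM in the Induced libraries. The log2 fold change was 1.90 (SE 0.14, adjusted p = 8.1e-06) and it was 1.05 with a pseudocount of 5, which weighs on low genes. Tnfsf9 overlaps the long noncoding RNA gene Gm11110 on the opposite strand, which had 1.24 to 2.03 FPKM in Initial and 3.82 to 4.15 FPKM in Induced libraries. The deposited span covers both genes. The sources used here do not say whether counting used strand, so reads of these genes may not be told apart.

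Tnfsf14 (ENSMUSG00000005824, 57189492 to 57194177, minus strand) encodes LIGHT, which binds the lymphotoxin β receptor and HVEM. It had 7.51, 6.00 and 6.28 FPKM in Initial A, B and C and 21.3, 25.0 and 19.5 FPKM in the Induced libraries. It was higher in every Induced library and rose by 1.59 on the log2 scale (SE 0.12, adjusted p = 9.3e-06). Cd70, the ligand gene between Tnfsf9 and Tnfsf14, was not listed in any Initial library or in Induced B, and had 0.229 and 0.104 FPKM in Induced A and C. C3, on the other side of Tnfsf14, had 1.304, 1.165 and 0.546 FPKM before and 0.183, 0.0197 and 0.0852 FPKM after culture and was not tested. All 5 ligands of chromosome 17 thus rose, and none of the 5 on other chromosomes did, a pattern picked out after the values were seen.

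Of the ligands on other chromosomes, Fasl (ENSMUSG00000000817, chromosome 1, 161780689 to 161788495, minus strand), which triggers apoptosis through Fas, was the second most abundant before culture. It had 84.8, 84.3 and 118 FPKM in Initial A, B and C and 26.3, 20.5 and 58.0 FPKM in the Induced libraries. Every mouse had less of it after culture, and the log2 fold change was -1.55 (SE 0.38, adjusted p = 0.011). Induced C held 2.48 times the mean of the other Induced libraries, and leaving it out gave -1.98 (adjusted p = 5.4e-05). Natural killer and CD8 T cells make Fasl as well, although mice of this genotype lack conventional αβ T cells. Of the 6 natural killer cell markers 3 (Klrb1c, Eomes and Klri2) were highest in Induced C among the Induced libraries, as were Cd8a and Cd8b1, while Ncr1 was highest in Induced A. Their part was not tested. The coding gene Suco at a distance of 27618 bases fell too, from 18.6 ± 1.80 to 8.31 ± 0.216 FPKM (adjusted p = 1.6e-05).

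Cd40lg (ENSMUSG00000031132, chromosome X, 57212143 to 57224042, plus strand) encodes the ligand by which helper T cells activate B cells and dendritic cells. It had 11.4, 16.0 and 15.0 FPKM in Initial A, B and C and 4.93, 7.64 and 3.01 FPKM in the Induced libraries. The groups did not overlap, and the log2 fold change was -1.35 (SE 0.27, adjusted p = 0.0034). Cd4, a gene of the helper cells that carry most Cd40lg in normal mice, went from 3.01 ± 0.847 to 0.1497 ± 0.0554 FPKM, and its part was not tested. Arhgef6, 7442 bases away on the opposite strand, had 55.7 ± 2.26 and 64.0 ± 4.76 FPKM (log2 fold change 0.20, adjusted p = 0.044).

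Tnfsf11 (ENSMUSG00000022015, chromosome 14, 78277445 to 78308043, minus strand) encodes RANKL, the ligand that drives osteoclast formation and lymph node development. It had 10.2, 10.7 and 8.75 FPKM in Initial A, B and C and 5.71, 6.21 and 3.60 FPKM in the Induced libraries. It fell in every mouse (log2 fold change -0.84, SE 0.17, adjusted p = 0.0030), to 0.522 of its mean before culture. Among the other listed neighbours of the ligands, Nceh1 and Akap11 did not pass, and Tnfsf18, Tnfsf15, Tnc, Tubb4a and Ghsr were under the filter.

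Tnfsf8 and Tnfsf10 did not pass the test. Tnfsf8 (ENSMUSG00000028362, chromosome 4, 63831308 to 63861347, minus strand), the ligand of CD30, had 10.1, 10.6 and 12.2 FPKM in Initial A, B and C and 9.28, 8.66 and 15.9 FPKM in the Induced libraries. Induced C lay above all Initial libraries and Induced A and B below them. Its log2 fold change was -0.0050 (95% interval -0.49 to 0.48, adjusted p = 0.985), and without Induced C it was -0.26 (adjusted p = 0.059). Tnfsf10 (ENSMUSG00000039304, chromosome 3, 27317028 to 27342427, plus strand), which encodes the death ligand TRAIL, had 5.33, 7.26 and 8.06 FPKM in Initial A, B and C and 5.45, 5.07 and 7.83 FPKM in the Induced libraries. The groups overlapped (log2 fold change -0.15, 95% interval -0.58 to 0.28, adjusted p = 0.480). Changes of up to these bounds are not shown to be absent.

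Induced C lay outside the range of Induced A and B in each of the ligands, by little in some. It lay below both in Lta, Tnf, Cd40lg, Tnfsf9, Tnfsf11 and Tnfsf14 and above both in Fasl, Tnfsf8, Tnfsf10 and Ltb. The ratio of Induced C to the mean of the other Induced libraries ran from 0.479 for Cd40lg to 2.48 for Fasl. The smallest differences were those of Tnfsf9 (0.905) and Ltb (1.095). How many of all genes tested placed Induced C outside the other Induced libraries was not counted. Its natural killer and αβ T cell marker sums, given above, were the highest of the Induced libraries, but not all markers went this way. Cd4 was lowest there (0.0858 FPKM, against 0.185 and 0.178 FPKM in Induced A and B). Most of the natural killer cell sum of Induced C was Eomes (46.7 FPKM) and Klrb1c (30.6 FPKM). Ncr1 had 0.109 FPKM there, against 0.220 and 0.0303 FPKM in Induced A and B, and Klra4 and Klra8 were at 0. The TCRβ-/- genotype lacks conventional αβ T cells, and the Pan T cell kit is meant to deplete cells other than T cells, natural killer cells included. The part of these cells in the values of Induced C was not tested. Leaving out Induced C changed none of the 8 calls.

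The order of the ligands by level changed between the groups. Before culture Ltb was above Fasl, and Fasl above all others, with no overlap of ranges. Cd40lg, Tnfsf8, Tnf, Lta and Tnfsf11 followed at means of 14.1 to 9.90 FPKM, with overlapping ranges between neighbours in this order. Tnfsf10 and Tnfsf14, at 6.88 and 6.60 FPKM, overlapped each other and lay below Tnfsf11, and Tnfsf9 was the lowest at 1.59 FPKM. After culture the order was led by Ltb, Lta and Tnf at means of 542, 382 and 92.1 FPKM, with no overlap between neighbours down to Fasl. Fasl (35.0 FPKM) overlapped Tnfsf14 (21.9 FPKM) and was below it in 1 library. Tnfsf8 (11.3 FPKM) overlapped Tnfsf9 (8.62 FPKM), and Tnfsf10, Cd40lg and Tnfsf11, at 6.12, 5.19 and 5.17 FPKM, had overlapping ranges at the bottom.

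The receptors of these ligands were followed in the same libraries. Of 11 receptor genes 8 were tested, of which 2 rose, 3 fell and 3 did not pass, with a median log2 fold change of -0.10. The 5 calls were no more frequent than over all genes tested, of which 70.4% were called. Tnfrsf1b, the TNF receptor without a death domain, was the most abundant and fell from 136 ± 17.4 to 55.3 ± 1.11 FPKM (log2 fold change -1.27, SE 0.09, adjusted p = 8.7e-06). Tnfrsf1a, the receptor of TNF and lymphotoxin α that carries a death domain, was at 28.8 ± 3.00 and 34.7 ± 3.36 FPKM, a log2 fold change of 0.26 with an SE of 0.10 (adjusted p = 0.048). Its groups overlapped, and the call was lost in 8 of 16 alternatives, among them without Initial B (adjusted p = 0.099), Initial C (0.143), Induced A (0.158) or Induced B (0.129). Fas, the receptor of Fasl, rose from 12.6 ± 0.663 to 17.2 ± 1.70 FPKM (log2 fold change 0.41, SE 0.09, adjusted p = 0.0041).

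Ltbr, the receptor of membrane lymphotoxin and LIGHT, went from 1.40 ± 0.370 to 0.105 ± 0.0485 FPKM, and Cd40, the receptor of Cd40lg, from 1.498 ± 0.377 to 0.0831 ± 0.0506 FPKM. Both were called lower (adjusted p = 0.00015 and 0.00012), but they met the filter through the Initial libraries alone and so had to differ. Ltbr is known from macrophages and Cd40 from B cells and macrophages. The summed markers of B cells and of macrophages were lower in every Induced library, and their part was not tested. Tnfrsf9, the receptor of Tnfsf9, had 44.6 ± 2.97 and 44.2 ± 1.56 FPKM (log2 fold change -0.01, adjusted p = 0.907). It was called higher once Cd3d, Cd3e, Cd3g, Cd247 and Trdc set the scale (0.21, adjusted p = 0.029). Tnfrsf10b, the receptor of TRAIL, had 1.91 ± 0.284 and 1.55 ± 0.211 FPKM and Tnfrsf14, which encodes HVEM, 0.9504 ± 0.0671 and 1.15 ± 0.373 FPKM, and neither passed (adjusted p = 0.199 and 0.452). Tnfrsf8 (0.115 ± 0.0572 and 0.504 ± 0.0990 FPKM), Tnfrsf11a (0.302 ± 0.0404 and 0.214 ± 0.110 FPKM) and Tnfrsf11b (0.0237 ± 0.0206 and 0.126 ± 0.0527 FPKM) were under the filter and not tested.

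Among 8 other ligands of the superfamily only 2 were tested. Tnfsf13b, which encodes the B cell survival factor BAFF, was called higher, with 0.156, 0.0689 and 0.538 FPKM in Initial A, B and C and 2.83, 3.51 and 2.72 FPKM in the Induced libraries (log2 fold change 1.69, SE 0.16, adjusted p = 4.0e-05). It met the filter through the Induced libraries alone and was no longer tested when 1 of them was left out. Tnfsf4, the ligand of OX40, had 1.71 ± 0.432 and 2.17 ± 0.386 FPKM and did not pass (adjusted p = 0.208). Tnfsf13, whose annotated span in the files is shared with Tnfsf12, had 0.854 to 1.38 FPKM in Initial libraries and was not listed in any Induced library.

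Genes that process membrane ligands were called about as often as all genes tested, of which 70.4% were called and 37.3% rose. Of 9 listed 6 were tested, of which 4 rose and none fell, with a median log2 fold change of 0.57 against 0.03 for all genes tested. Rhbdf2, which encodes the cofactor iRhom2 that brings the TNF-releasing protease ADAM17 to the cell surface, rose from 7.06 ± 0.195 to 22.1 ± 3.48 FPKM (log2 fold change 1.51, SE 0.11, adjusted p = 1.1e-05). Furin, a protease that activates ADAM17, rose from 24.9 ± 1.99 to 66.4 ± 8.53 FPKM, and Sppl2b, an intramembrane protease that cleaves the TNF stub, from 13.5 ± 1.19 to 22.6 ± 2.63 FPKM (adjusted p = 1.3e-05 and 0.00047). The fourth was Adam17 itself, which went from 22.4 ± 0.872 to 30.4 ± 1.57 FPKM (adjusted p = 0.00077).

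Of 11 genes of proteins that bind cytokine messenger RNAs, 5 fell, 2 rose and 4 did not pass, with a median log2 fold change of -0.22. The 7 calls were no more frequent than over all genes tested, of which 70.4% were called, 33.1% falling and 37.3% rising. Zfp36, whose product tristetraprolin binds AU-rich elements such as the nonamers of Tnf and promotes decay, had 200, 236 and 169 FPKM in Initial A, B and C and 20.9, 19.9 and 18.8 FPKM in the Induced libraries (log2 fold change -3.27, SE 0.12, adjusted p = 2.9e-07). Its relative Zfp36l2 fell from 170 ± 6.65 to 27.5 ± 7.90 FPKM, and Zc3h12a, which encodes the endonuclease regnase-1, from 11.5 ± 1.33 to 1.43 ± 0.240 FPKM (adjusted p = 8.1e-06 and 1.5e-06). Hnrnpd rose from 18.3 ± 1.94 to 23.8 ± 0.583 FPKM (adjusted p = 0.0058). Elavl1, which encodes HuR, rose from 97.2 ± 4.43 to 114 ± 1.96 FPKM (adjusted p = 0.0096). Whether the listed proteins act in the same direction on a message was not tested. No measurement here relates these levels to the stability of any ligand transcript.

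In TNF receptor signalling, 10 of 19 tested genes fell, 3 rose and 6 did not pass, with a median log2 fold change of -0.35. The 13 calls were about as frequent as over all genes tested, of which 70.4% were called, 33.1% falling and 37.3% rising. Tnfaip3, which encodes the feedback inhibitor A20 and is itself a target of NF-κB, had 641, 673 and 587 FPKM in Initial A, B and C and 28.3, 31.5 and 19.3 FPKM in the Induced libraries (log2 fold change -4.56, SE 0.17, adjusted p = 3.7e-07). Birc3, an inhibitor of apoptosis that acts in the receptor complex, fell from 59.7 ± 3.09 to 20.8 ± 0.839 FPKM and the adaptor gene Traf6 from 16.7 ± 1.64 to 6.09 ± 0.399 FPKM (adjusted p = 8.3e-07 and 8.3e-06). The genes that rose were Ripk1, the kinase gene of the TNF receptor complex (18.8 ± 1.01 to 33.7 ± 1.001 FPKM, adjusted p = 2.0e-05), Casp8, the initiator caspase (76.8 ± 9.52 to 108 ± 4.11 FPKM, adjusted p = 0.0021), and the adaptor gene Traf2 (29.5 ± 1.15 to 35.7 ± 2.84 FPKM, adjusted p = 0.015).

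Transcripts of transcription factors that T cell receptor signals induce or activate mostly fell, and those of Lta and Tnf rose. The activity of the factors was not measured. Of 17 tested 15 fell and 2 rose, with a median log2 fold change of -2.64. Over all genes tested 33.1% fell, 37.3% rose and the median was 0.03. Of the 17, 2 (Fosb and Nr4a3) met the filter through the Initial libraries alone. Nr4a1 went from 868 ± 206 to 3.65 ± 0.625 FPKM, Fos from 308 ± 53.4 to 0.829 ± 0.211 FPKM and Nr4a2 from 153 ± 3.81 to 1.23 ± 0.275 FPKM (adjusted p = 6.7e-08, 3.5e-08 and 1.2e-08). The genes that rose were Nfatc2, which encodes an NFAT factor (9.48 ± 0.799 to 14.6 ± 0.977 FPKM, adjusted p = 0.00064), and Nfkb1, a subunit of NF-κB (65.9 ± 0.326 to 76.8 ± 6.34 FPKM, adjusted p = 0.028). These early response genes can also be induced while cells are sorted, and the handling of the groups differed, so culture and handling cannot be told apart. The same limit holds for the other lists, among them for Zfp36, Zc3h12a, Tnfaip3 and Birc3. The part of B cells and macrophages, whose summed markers fell, in the levels of these genes and of Tnfrsf1b was not tested.

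**Figure D4:**
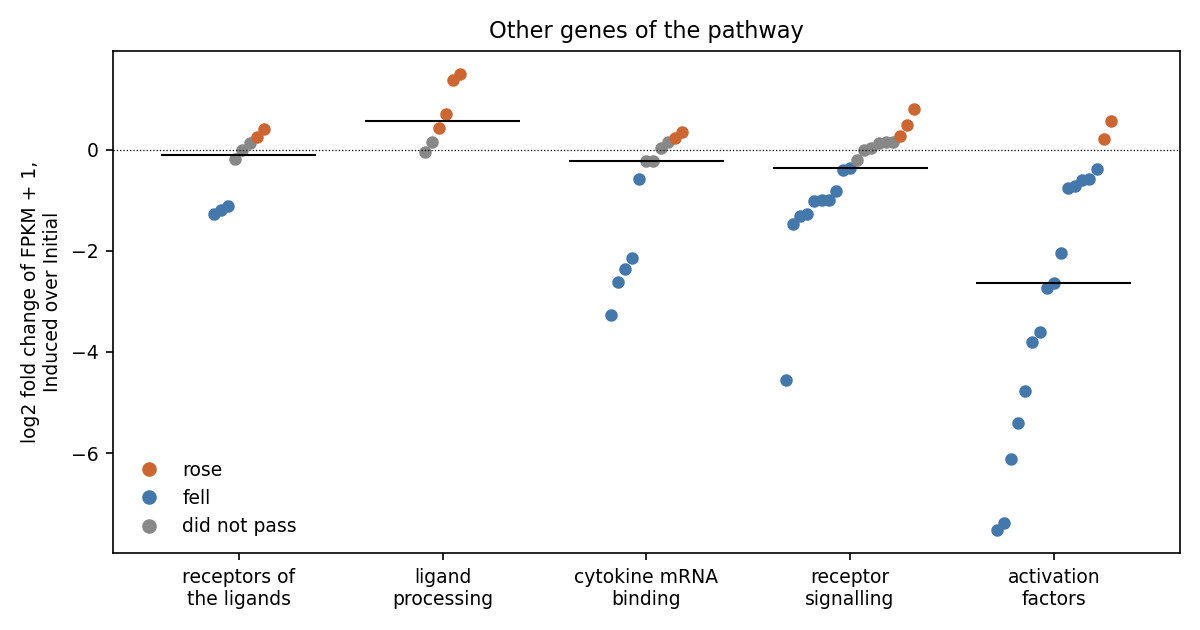
Log2 fold change of FPKM + 1 (Induced over Initial) of each tested gene in the lists of receptors, ligand processing, cytokine messenger RNA binding, receptor signalling and activation factors, with a line at the median of each list. The medians are -0.10, 0.57, -0.22, -0.35 and -2.64, and orange, blue and grey points rose, fell and did not pass.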

How the data were processed

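Messenger RNA was measured in 6 libraries (VAHTS mRNA-seq kit, per the labels' protocols). The deposited values are the authors' FPKM of each gene, 1 file per library. The submitters' processing notes name CASAVA, HISAT2 2.0.5, Cuffdiff 1.3.0 and 2.2.1 and the build mm9. The deposited loci instead match GRCm38: 99.94% of 26669 gene identifiers found in GENCODE M21 lie on the same chromosome and 91.14% inside the listed span, so positions are from that annotation. No listed value was 0, and a gene with no row counted as 0, which can also be a failed estimate. For 24 genes a symbol that had become a date was looked up by identifier.

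The test used limma 3.58.1 (R 4.3.3, trend, robust, two-sided, Benjamini-Hochberg) on log2(FPKM + 1) of genes that reached FPKM 1 in 3 or more libraries. A check on simulated data changed only a small share of genes. In the real data 70.4% were called, so the check does not cover a shift of this extent. Ratios and sums were tested by exact permutation over libraries. Depth came from steps of low values in genes with 1 transcript. There 43.9 to 48.6% of values lay within 0.15 of a whole fragment, against 30% by chance. The fragment length fitted along with depth was 1 to 41 bases, implausibly short, so depth and counting error are rough. The mouse letters of the titles pair the libraries by animal. Correlations of deviations from the group mean were 0.039, 0.031 and 0.131 for mice A, B and C, against -0.132 to 0.099 between mice. Replicates are mice, and p-values weigh the difference between groups against the spread between libraries within a group. The main test and the permutations did not pair libraries by mouse. The smallest permutation p of 0.1 therefore holds for unpaired libraries only, and blocking by mouse was an alternative of the limma test.

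The ligands and all gene lists were chosen with earlier results of these data known. Named genes are all ligands and their receptors, up to 3 largest rises and 3 largest falls of each other list, and annotated neighbours. Adam17, Tnfsf4, Tnfsf13, Cd4 and Blk were named after their values were seen. Alternatives were pseudocounts of 0.1 and 5, no filter, a filter at FPKM 5, 4 other scalings, blocking by mouse, limma without trend or robust shrinkage, and omission of each library. Other software was Python 3.11.15 with pandas 2.3.3, numpy 2.4.6, matplotlib 3.10.9 and scipy 1.17.1.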

Additional observations from a re-analysis of the deposited data

How the results depend on the processing

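All 8 called ligands kept their call and direction in each of the 16 alternatives, including the mouse as a replicate block, where 7943 genes and the same 8 ligands were called. The least certain was Fasl, with an adjusted p of 0.0493 without Initial C and 0.0478 without Induced A. The sign of Tnfsf8 turned with a pseudocount of 5 (0.0038), scaling factors of the TMM kind (0.030) and scaling to the CD3 chains and Trdc (0.20), and ran from -0.26 to 0.14 when 1 library was left out. Under that CD3 scaling Tnfsf10 (0.046) and Tnfrsf9 (0.21) also turned; Tnfrsf9 was 0.028 with scaling factors of the TMM kind and -0.063 to 0.028 with 1 library left out, and Tnfrsf10b was 0.0073 after quantile normalization. The causes were not tested. The CD3 scaling moved the median of all genes from 0.03 to 0.24, and there 67.3% of calls rose, against 52.9%. Receptor calls went from 5 to 3 with the filter at FPKM 5, 2 after quantile normalization and 2 to 5 with 1 library left out. Calls among the other ligands went from 1 to 3 without a filter, 0 at FPKM 5, 2 under quantile and CD3 scaling and 0 without any 1 Induced library. With 3 libraries a group, Tnfsf8 and Tnfsf10 are bounded only by their intervals.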
